A study of Mus musculus with 6 samples.

Results

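The genes described here are the microRNA hairpins that carried reads in RNA-seq libraries of whole mouse embryos. They were selected on their symbol, which begins with Mir and a digit or with Mirlet7 and is not that of a host gene, and on their level, a mean raw count of at least 3 over all 6 libraries. Of 1180 annotated hairpins in the count table, 553 had at least 1 count and 114 met the rule, out of 55401 genes in all. The rule used the level over all libraries and not the difference between genotypes. In WT alone 104 of the 114 had a mean count of at least 3, in 5C alone 106 did, and in both 96 did.

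The embryos were taken at E10.5 on a C57BL/6J background and were of 2 genotypes with 3 libraries each. WT embryos carried the unmodified *Igf2* locus. 5C embryos carried the *Mir483* 5C allele, in which an array of 5 tandem *Mir483* copies sits at the endogenous *Igf2* locus and was inherited from the father, so that the array is driven by the regulatory elements of *Igf2* in every tissue that uses them. Each library pooled a pair of embryos described as male, and 5C embryos do not survive midgestation. The study describes the WT embryos as littermates of the 5C embryos. The labels give no age other than the embryonic stage, and nothing in them ties equal replicate numbers of the genotypes together.

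Total counts ranged from 6357343 to 19151368 per library, so that 3 counts, taken as the detection floor, correspond to 0.157 to 0.472 CPM (counts scaled to library totals, which were adjusted by TMM factors elsewhere in the text). Markers of the embryo summed to between 3689 and 6818 CPM in every library. Most of each sum came from the embryonic globin genes *Hbb-bh1* (2557 to 4750 CPM) and *Hba-x* (595.3 to 2403 CPM). The highest value of any other gene of that list was 102.4 CPM, for *Myl7* in WT replicate 2. Markers of yolk sac reached 5642 CPM in WT replicate 1, against 166.7 and 400.9 CPM in the other WT libraries and 112.9 to 1079 CPM in 5C. Markers of decidua and placenta lay between 9.90 and 45.9 CPM. Replicate 2 of each genotype had almost no reads from Y-linked genes (*Ddx3y* at 0.945 CPM in WT and at 0 in 5C, against 41.6 to 55.9 CPM in the other libraries), although the embryos are stated to be male, and *Xist*, which is transcribed from an inactive X chromosome, was read in all 6 libraries. The part of these differences in the values given here was not tested, beyond the values without single libraries.

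MicroRNAs are cut in the nucleus by Drosha from hairpins inside longer primary transcripts, which may be noncoding RNAs of their own or introns of a host gene, and then by Dicer to the short mature strands that guide Argonaute proteins to matching messenger RNAs. Bases 2 to 8 of the mature strand, the seed, decide most of this pairing. The libraries were made from polyadenylated RNA and read in fragments longer than a mature microRNA. A count at a hairpin is therefore a read of the uncut primary transcript or intron, or of another RNA with the same bases. The level of the mature microRNA was not measured. In bulk tissue, fewer cells of a type and less RNA per cell cannot be told apart.

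The mature sequences of the microRNAs on which the results turn are shown here so that their seeds can be compared, with the seed in capitals. They were taken from RefSeq for GRCm38.p6, where 109 of the 114 hairpins had an entry with 186 mature sequences. Both strands of the edited gene come first, followed by both strands of *Mir335* and by the strand of *Mir8091*.
miR-483-3p: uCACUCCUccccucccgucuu
miR-483-5p: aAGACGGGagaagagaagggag
miR-335-5p: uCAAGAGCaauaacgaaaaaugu
miR-335-3p: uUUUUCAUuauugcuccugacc
miR-8091: aGGAGUGAgugguaagcuggug
Among all 1738 mature mouse sequences of the table, no other one shared the seed of either miR-483 strand, so *Mir483* has no seed relative among the hairpins compared with it. The letters AGGAGUG, the reverse complement of the miR-483-3p seed, occurred on the given strand of 9 of 1005 hairpin sequences, or 0.896%, and of 2 of the 101 hairpins with reads that have one, *Mir453* and *Mir8091*. These are matches of letters and not shown to be sites.

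*Mir483* (ENSMUSG00000070140) was read in all 6 libraries and stood far higher in 5C. Its GRCm38 position is chromosome 7 (minus strand), bases 142654924 to 142654996, in an intron of *Igf2*, the gene of the fetal growth factor IGF2, and no annotated exon of another gene covers it. WT libraries held 11, 5 and 2 counts, or 0.577, 0.429 and 0.319 CPM. 5C libraries held 85, 51 and 36 counts, or 5.15, 4.35 and 2.56 CPM. The lowest 5C library was above the highest WT library. The variance within genotypes was 3.39 times that of counting alone.

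*Mir483* thus differed by 3.05 on the log2 scale (SE 0.36, 95% interval 2.24 to 3.86), a fold change of 8.29 (4.73 to 14.6). Its unadjusted p was the smallest of all 16784 genes tested with edgeR's quasi-likelihood test. After Benjamini-Hochberg adjustment over these genes the adjusted p = 0.170 did not pass the threshold of 0.05, and it entered the test only through its 5C libraries, since 0 of the 3 WT libraries reached the filter of 0.772 CPM. Without 5C replicate 3 the value was 3.29 (adjusted p = 0.0256). It was called, with values between 3.05 and 3.09, by DESeq2 (0.113% of genes called), by moderation robust to outlying genes (0.0179%) and by the test without a count filter (1.26%). That last test took little account of the spread between libraries. It gave the hairpin *Mir6236*, which varied widely within genotypes, an SE of 0.083 against 0.624 in the main test. An exact two-sided permutation test of the *Mir483* CPM values gave p = 0.1, the smallest that 3 against 3 libraries allow. Without replicate 2 of either genotype the log2 fold change of *Mir483* was 2.93, with adjusted p = 0.837 in edgeR's test.

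Reads from every copy of the array fall on the 1 annotated hairpin, so the fold change can be set beside the number of copies. A ratio of 5 is 2.32 on the log2 scale. The measured log2 fold change exceeded it by 0.73 (SE 0.36), with a 95% interval from -0.08 to 1.54, which includes 0. By the study's methods, the array was exchanged into ES cells in which a selection cassette had already taken the place of *Mir483*. That gives 5 copies on the edited allele, although its results speak of extra copies. Had the gene stayed beside the array, 6 copies would give 2.58, and the excess would be 0.47 (95% interval -0.34 to 1.28). The array stands on the paternal allele, and the share of the WT reads that came from each allele was not measured.

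*Mir483* moved from the middle of the hairpins to near their top. Ranked by CPM among the 114, it stood at 46, 64 and 63 in the WT libraries and at 4 in each 5C library. Ties took the best rank, and 4, 11 and 23 other hairpins were tied with *Mir483* in the WT libraries. In WT replicate 3, *Mir483* held 2 counts, below the floor of 3. Relative to the median of the other hairpins in the same library it measured 1.22, 0.833 and 0.667 in WT and 10.6, 10.2 and 7.20 in 5C. As a share of all hairpin CPM except those of *Mir6236*, it was 0.573% ± 0.157 in WT and 5.39% ± 1.30 in 5C (SD, n = 3). These ratios hold within a library and do not depend on how libraries were scaled.

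*Mir335*, the third hairpin by level, gives a scale for this. *Mir483* reached 15.3%, 10.2% and 6.90% of the *Mir335* level in WT and 93.4%, 73.9% and 32.1% in 5C. It remained below *Mir335* in every library.

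**Figure D1:**
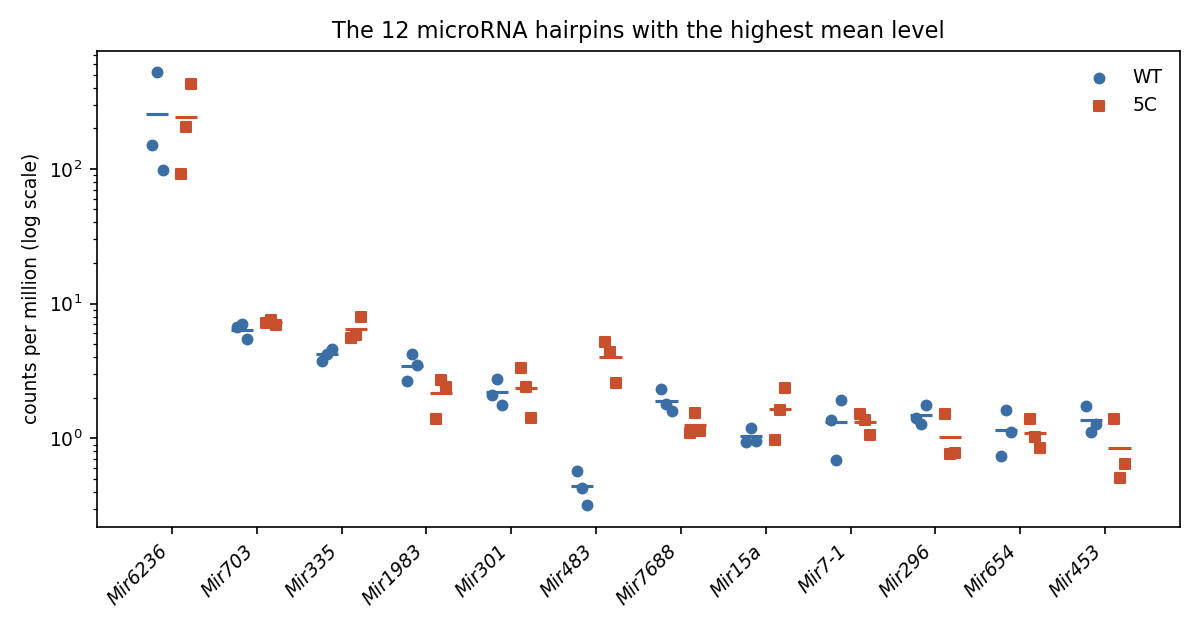
CPM (log scale) of the 12 hairpins with the highest mean over all libraries, ordered by that mean, with WT libraries as circles, 5C libraries as squares and group means as lines. *Mir483* is the hairpin whose genotypes lie furthest apart, with WT libraries from 0.319 to 0.577 and 5C libraries from 2.56 to 5.15, while *Mir6236* spreads within both genotypes.

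The other 113 hairpins showed no change that passed the threshold. Of these, 30 had enough counts to be tested, and 0 had an adjusted p under 0.05, the lowest being 0.781. The background was the same, with 0.0% of all 16784 genes called in either direction, while 19 genes were called by DESeq2 and *Mir483* was the only hairpin among them. The standard errors of the 30 log2 fold changes ranged from 0.15 to 0.62 with a median of 0.37, so a typical 95% interval reached 1.78-fold to each side of the estimate. Changes smaller than that could not be told from 0 for a typical hairpin among the 30. The interval is not adjusted for the number of genes, so larger changes could also miss the threshold. *Mir8091*, at -1.23 on the log2 scale, had an adjusted p = 0.781 in edgeR's test. The 83 hairpins with too few counts were not tested.

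At an unadjusted p under 0.05, 6 of the 30 passed, 5 lower and 1 higher in 5C, where the background over all genes was 6.02%, made of 3.47% lower and 2.55% higher. With *Mir483* the count was 7 of 31. It was 4 without WT replicate 2, 3 without 5C replicate 3, 4 without replicate 2 of both genotypes and 3 with DESeq2. Of the 31 tested hairpins only 9 reached the filter in all 6 libraries, 18 reached it in all WT libraries and 13 in all 5C libraries. Among those other than *Mir483*, 2 (*Mir8091* and *Mir494*) reached it in all WT and no 5C libraries and 0 the other way. The filter thus bears on the split into lower and higher, and the split is a description only.

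Mean CPM was lower in 5C for 72 of the 113 and higher for 41. The median ratio of mean CPM, 5C over WT, was 0.811, with quartiles of 0.660 and 1.13. Among 9061 other genes with raw counts in the same range, the median ratio was 0.986 and 52.3% were lower in 5C, against 63.7% of the hairpins. Only the ends of that range were matched, and the median of the hairpins' mean counts was 6. Of the hairpins, 28 lie in 1 imprinted domain described below and cannot be taken as independent. Among the 30 tested, 19 were lower and 11 higher, and their median log2 fold change was -0.13 where that of all genes was 0.00. The median was -0.33 without WT replicate 1, -0.39 without WT replicate 3 and -0.40 without 5C replicate 1, each over the hairpins that passed the filter in those libraries. Over the 6 with at least 10 counts in every library it was 0.001.

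The sum over the other hairpins was dominated by *Mir6236*. It came to 332.4 ± 234.2 CPM in WT embryos and 310.3 ± 164.0 CPM in 5C embryos, a ratio of 0.933 that turned to 1.565 without WT replicate 2 and 1.147 without 5C replicate 1, and was 0.664 without 5C replicate 3. Without *Mir6236* it was 76.3 ± 5.33 CPM in WT embryos and 69.4 ± 6.56 CPM in 5C embryos (SD, n = 3), a difference of about the size of the spread. Among hairpins too low to be tested, the ratios reached from 0.221 for *Mir7053* to 3.44 for *Mir363*, but these rest on few reads, at 5, 6 and 3 against 2, 1 and 1 counts for *Mir7053* and 1, 3 and 0 against 3, 2 and 10 for *Mir363*.

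Genotypes did not overlap for 15 of the 114 hairpins. Apart from *Mir483* these were 10 that were lower and 4 that were higher in 5C, or 12.4% of 113, where 11.1% of the 20425 genes with a mean count of at least 3 did not overlap (5.18% lower and 5.90% higher). The share is near the background. The 10 lower ones were *Mir7688*, *Mir679*, *Mir8091*, *Mir494*, *Mir351*, *Mir376c*, *Mir98*, *Mir697*, *Mir7053* and *Mir26a-2*, and the 4 higher ones were *Mir335*, *Mir666*, *Mir421* and *Mir1955*.

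**Figure D2:**
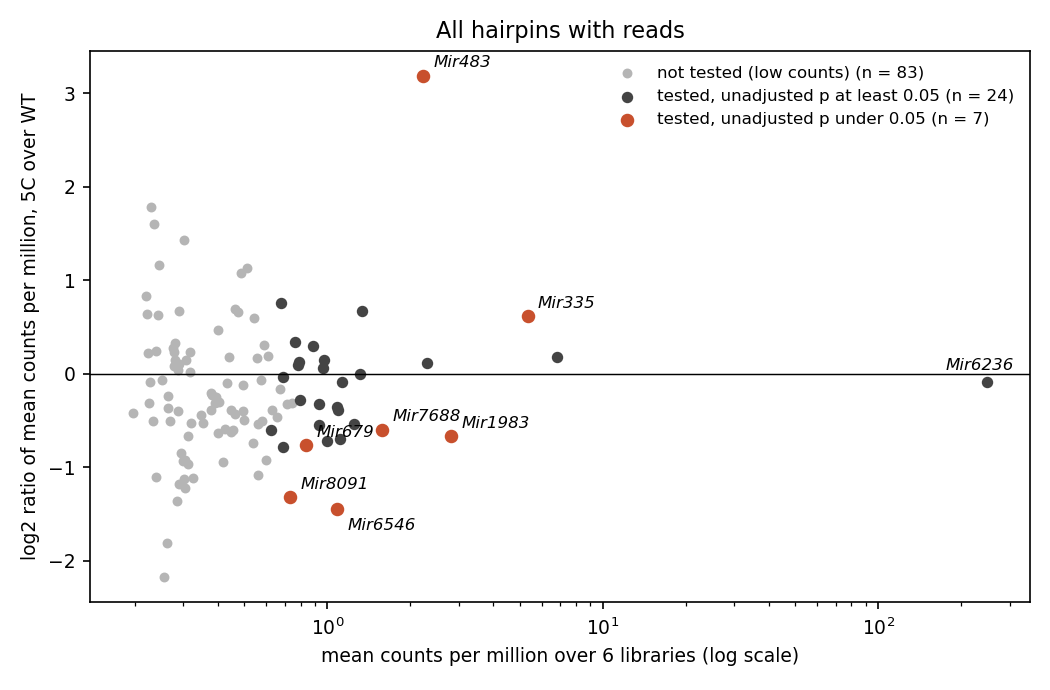
Each point is 1 of the 114 hairpins, with the mean CPM over all libraries on a log axis and the log2 ratio of group means, 5C over WT, on the other. *Mir483* stands alone at the top at a ratio of 9.11, the 83 hairpins too low to test spread widely at the left, and 5 of the 6 other hairpins with an unadjusted p under 0.05 lie below 0.

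*Mir335* was the only hairpin beside *Mir483* that was higher in 5C at an unadjusted p under 0.05. It lies on chromosome 6 from 30741299 to 30741396 in an intron of *Mest*, a gene expressed from the paternal allele in mesoderm. WT libraries measured 3.78, 4.21 and 4.63 CPM and 5C libraries 5.51, 5.89 and 7.97 CPM, so each 5C library was above each WT library. It differed by 0.64 on the log2 scale (SE 0.20, 95% interval 0.20 to 1.08), but edgeR's adjusted p = 0.781. *Mest* itself measured 1672 ± 195 CPM in WT embryos and 1628 ± 88.8 CPM in 5C embryos (SD, n = 3), or -0.04 on the log2 scale (SE 0.09). The difference between the hairpin and its host was not tested.

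*Mir8091* had the smallest p of the hairpins that were lower, but it entered the test through its WT libraries alone, since 3 of 3 WT and 0 of 3 5C libraries reached the filter. It lies between genes on chromosome 19 from 41588651 to 41588789, and its seed is printed above. WT libraries measured 0.997, 0.859 and 1.28 CPM and 5C libraries 0.545, 0.427 and 0.285 CPM, from 19, 10 and 8 against 9, 5 and 4 counts. The genotypes did not overlap. The difference was -1.23 on the log2 scale (SE 0.37, 95% interval -2.06 to -0.40, adjusted p = 0.781 in edgeR's test), and with DESeq2 its unadjusted p was not under 0.05.

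*Mir6546*, in an intron of the Fc receptor gene *Fcgr3* on chromosome 1, measured 0.892, 1.63 and 2.23 CPM in WT libraries and 0.909, 0.342 and 0.498 CPM in 5C libraries. One 5C library lay just above the lowest WT library, and 3 WT libraries and 1 5C library reached the filter. The difference was -1.24 on the log2 scale (SE 0.45), and -0.92 without replicate 2 of both genotypes. Its unadjusted p was no longer under 0.05 there, nor without WT replicate 2 or 3 or 5C replicate 2 or 3 alone. *Fcgr3*, which marks macrophages and other myeloid cells, measured 14.8, 3.00 and 2.87 CPM in WT libraries and 2.73, 3.59 and 6.12 CPM in 5C libraries, and its highest library was WT replicate 1, in which the hairpin was lowest of the WT libraries.

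The remaining 3 of the hairpins that were lower at an unadjusted p under 0.05 were *Mir7688*, *Mir679* and *Mir1983*, none of which lies in a gene. *Mir7688*, on chromosome 10, measured 2.31, 1.80 and 1.60 CPM in WT libraries and 1.09, 1.54 and 1.14 CPM in 5C libraries, with a log2 fold change of -0.66 (SE 0.26). *Mir679*, in the imprinted cluster described below, measured 0.997, 1.20 and 0.957 CPM in WT libraries and 0.667, 0.768 and 0.427 CPM in 5C libraries, with a log2 fold change of -0.77 (SE 0.33). Both were separated between genotypes, but *Mir679* reached the filter in 3 WT libraries and in 1 5C library. *Mir1983*, on chromosome 13, overlapped, with 2.68, 4.21 and 3.51 CPM in WT libraries and 1.39, 2.73 and 2.42 CPM in 5C libraries, and a log2 fold change of -0.67 (SE 0.29). For each of the 3, edgeR's adjusted p = 0.781. The unadjusted p was not under 0.05 for *Mir7688* in 3 of the 6 fits without a single library (WT replicate 1, 5C replicates 1 and 3), for *Mir679* in 5 of 6 (all but 5C replicate 2), for *Mir1983* in 4 of 6 (WT replicates 2 and 3, 5C replicates 1 and 3), and for any of the 3 with DESeq2.

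**Figure D3:**
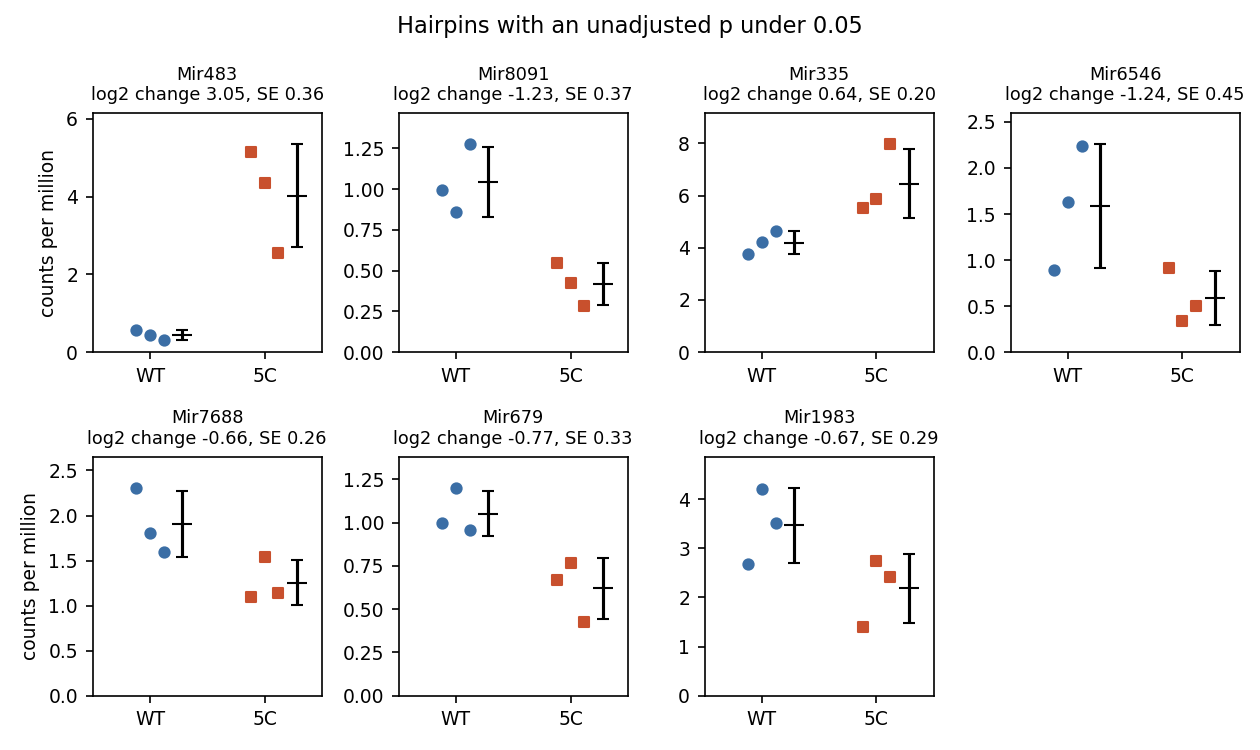
CPM per library of the 7 hairpins with an unadjusted p under 0.05 in edgeR's test, with WT as circles, 5C as squares, and mean ± SD beside them (n = 3). *Mir483* is at most 0.577 in WT and at least 2.56 in 5C, *Mir335* at most 4.63 and at least 5.51, and the other 5 are lower in 5C.

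The largest group of hairpins with reads came from the imprinted domain on chromosome 12, where *Meg3*, *Rian* and *Mirg* form a long run of noncoding transcription from the maternal allele that carries many microRNAs known for roles in placenta, muscle and brain. It was grouped after the values were seen. The plus strand from *Meg3* to *Mirg* held 28 of the 114 hairpins, from 109588592 to 109743368, of which 8 were tested. Their summed level was 20.2, 19.1 and 14.4 CPM in WT libraries and 16.9, 12.1 and 12.2 CPM in 5C libraries. The lowest WT library lay below the highest 5C library.

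The mean of the domain was 17.9 ± 3.13 CPM in WT embryos and 13.8 ± 2.73 CPM in 5C embryos (SD, n = 3), a ratio of 0.768, which ranged from 0.680 to 0.821 when single libraries were left out and was 0.777 with scaling by library size alone. In this domain 22 hairpins were lower in 5C and 6 higher. Outside it, 50 of 85 were lower and 35 higher, and their sum without *Mir6236* was 58.4 ± 3.54 CPM in WT embryos and 55.7 ± 4.35 CPM in 5C embryos, a ratio of 0.952. At single hairpins, *Mir679* is given above, and *Mir494*, next to it, measured 0.787, 1.03 and 0.798 CPM in WT libraries and 0.727, 0.512 and 0.285 CPM in 5C libraries (log2 fold change -0.74, SE 0.40). *Mir666* stood the other way, with 0.630, 0.172 and 0.160 CPM in WT libraries and 0.788, 0.683 and 0.641 CPM in 5C libraries.

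The long transcripts of the domain were measured as genes of their own. *Mirg* measured 104.8, 98.5 and 98.1 CPM in WT libraries and 89.0, 84.7 and 93.5 CPM in 5C libraries, a log2 fold change of -0.17 (SE 0.07, unadjusted p under 0.05, adjusted p = 0.781 in edgeR's test), and the genotypes did not overlap. *Meg3* had a log2 fold change of -0.17 (SE 0.10) and *Rian* of -0.11 (SE 0.10), with overlapping libraries. *Mir453*, in an intron of *Mirg*, had a log2 fold change of -0.68 (SE 0.39), and *Mir654* of -0.02 (SE 0.37).

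Inside the domain 3 runs of hairpins lay within 10 kb of a neighbour on the same strand. The run of 22 from *Mir411* to *Mir412* had a ratio of summed CPM of 0.789, that of *Mir3070b*, *Mir127*, *Mir434* and *Mir432* of 0.667, and *Mir341* with *Mir1188* of 0.789. *Mir127* and *Mir434* are read from the strand opposite to *Rtl1*, a paternally expressed gene needed for placental capillaries. All 4 hairpins of that run were lower in 5C, with sums of 3.11 ± 1.06 CPM in WT embryos and 2.07 ± 0.43 CPM in 5C embryos.

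**Figure D4:**
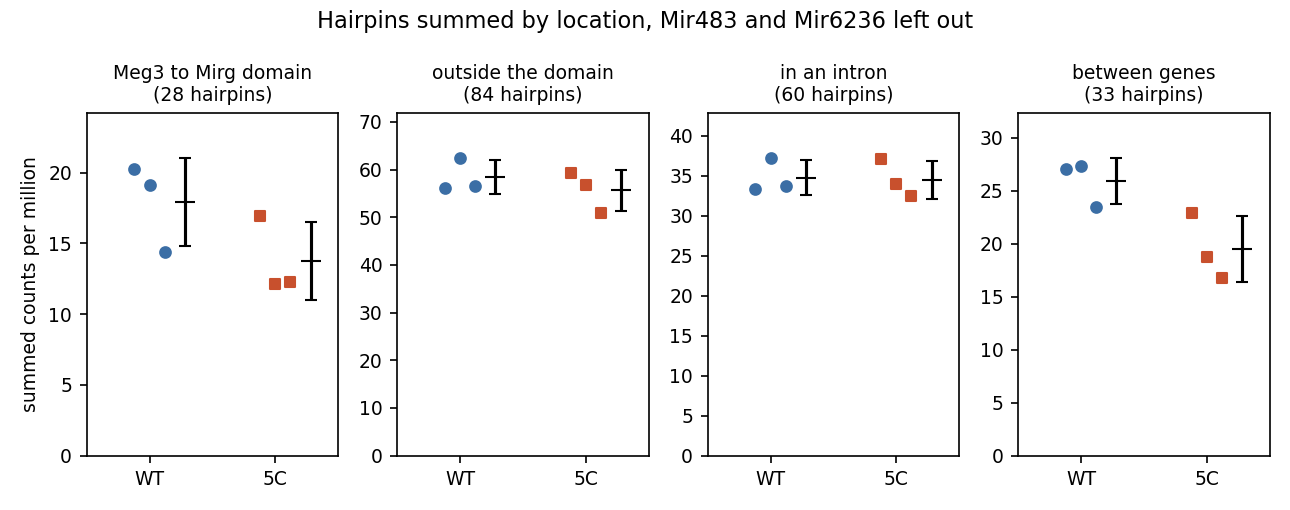
Summed CPM per library, WT as circles and 5C as squares with mean ± SD beside them (n = 3), for the 28 hairpins of the Meg3 to Mirg domain, the 84 outside it, the 60 in an intron and the 33 between genes, without *Mir483* and *Mir6236*. Sums in introns overlap almost fully, while every WT library is above every 5C library for hairpins between genes.

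Hairpins with reads were unevenly spread over positions. Of 559 hairpins in an intron on the same strand, 61 (10.9%) were among the 114, of 235 between genes 34 (14.5%), of 272 touching an exon on the same strand 14 (5.15%), and of 114 opposite a gene 5 (4.39%). Of 205 hairpins lying at least 80% under an exon on the same strand, 1 met the rule (0.488%). The counting in STAR discards reads that exons of several genes cover, so reads of hairpins inside an exon can be lost. How many were lost was not measured, and the part of this in the low share was not tested.

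The sums by position are given as a description, and the difference between positions was not tested. The 60 other hairpins in introns summed to 34.8 ± 2.19 CPM in WT embryos and 34.5 ± 2.36 CPM in 5C embryos (SD, n = 3), with 35 lower and 25 higher. The 33 between genes, without *Mir6236*, summed to 25.9 ± 2.16 CPM in WT embryos and 19.4 ± 3.11 CPM in 5C embryos, a ratio of 0.750 (0.684 to 0.802 without single libraries), with 25 lower and 8 higher. The 17 of these that lie outside the Meg3 to Mirg domain had a ratio of 0.714 and no overlap between the genotypes. The groups by position were formed after the values were seen, and 3 of these 17 are the hairpins *Mir8091*, *Mir7688* and *Mir1983* described above.

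Several small clusters and families are known for a tissue. *Mir144* and *Mir451a*, which are transcribed together in red cells, summed to 1.73, 1.29 and 1.60 CPM in WT libraries and 1.94, 0.939 and 0.356 CPM in 5C libraries, overlapping widely. The X-linked cluster of *Mir322*, *Mir503* and *Mir351*, known in muscle differentiation, summed to 2.70 ± 0.43 CPM in WT embryos and 2.08 ± 0.51 CPM in 5C embryos. *Mir100* with *Mirlet7a-2*, in a shared noncoding host on chromosome 9, gave 1.55 ± 0.38 CPM in WT embryos and 1.78 ± 0.28 CPM in 5C embryos. None of these sums was separated between the genotypes.

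Seeds shared by several hairpins with reads were compared next, since hairpins of different chromosomes can yield mature strands of 1 family. The sequences of the miR-15 and miR-16 family, which restrains the cell cycle, and of the let-7 family, which is blocked by LIN28 in early embryos, show the common seed in capitals.
miR-15a-5p: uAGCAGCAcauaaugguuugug
miR-15b-5p: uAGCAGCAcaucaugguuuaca
miR-16-5p: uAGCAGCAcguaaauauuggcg
miR-322-5p: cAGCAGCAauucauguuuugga
let-7c-5p: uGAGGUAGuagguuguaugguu
let-7e-5p: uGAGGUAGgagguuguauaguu
miR-98-5p: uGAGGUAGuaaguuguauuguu
The 4 hairpins with the seed AGCAGCA summed to 3.05 ± 0.69 CPM in WT embryos and 3.22 ± 0.40 CPM in 5C embryos, a ratio of 1.05 in which *Mir15a* was higher and the other 3 lower. The 3 hairpins for which the table lists a strand with GAGGUAG had a ratio of 1.22, with *Mir98* lower and *Mirlet7c-1* and *Mirlet7e* higher. *Mirlet7a-2*, another let-7 hairpin with reads, is left out of that sum because the table gives only its 3p strand.

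The 3 hairpins with the seed ACAUUCA, *Mir181a-1*, *Mir181b-2* and *Mir181c*, were each lower in 5C, with sums of 1.92 ± 0.47 CPM in WT embryos and 1.16 ± 0.76 CPM in 5C embryos. That ratio of 0.604 ranged from 0.400 to 0.794 when single libraries were left out, and the genotypes overlapped. *Mir26a-2* and *Mir26b*, with the seed UCAAGUA, summed to 1.12 ± 0.29 CPM in WT embryos and 0.787 ± 0.17 CPM in 5C embryos. *Mir218-1* and *Mir218-2*, in introns of the axon guidance genes *Slit2* and *Slit3*, had a ratio of 1.02.

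The hairpin with the most reads was *Mir6236*, between genes on chromosome 9 from 110281287 to 110281409. It measured 150.3, 519.2 and 98.8 CPM in WT libraries and 91.8, 204.3 and 426.5 CPM in 5C libraries, and varied more within each genotype than between them (log2 fold change -0.09, SE 0.62). Its variance within genotypes was 2062 times that of counting, where the median of the other hairpins was 1.14 times. *Mir703*, next in level, was even, with 6.66, 7.04 and 5.42 CPM in WT libraries and 7.15, 7.60 and 6.98 CPM in 5C libraries (log2 fold change 0.17, SE 0.15). Of the runs of 40 bases in *Mir703*, 18.6% also occur in transcripts of other genes including *Eef1a1*, so its count is uncertain. For *Mir6236* the share was 0.0%, but only annotated transcripts were searched, and the source of its reads was not tested.

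Among other hairpins of high level, libraries of *Mir301*, *Mir7-1*, *Mir296* and *Mir15a* overlapped between the genotypes. *Mir301*, in an intron of *Ska2*, measured 2.10, 2.75 and 1.75 CPM in WT libraries and 3.33, 2.39 and 1.42 CPM in 5C libraries (log2 fold change 0.10, SE 0.32). *Mir7-1*, in an intron of *Hnrnpk*, had a log2 fold change of 0.07 (SE 0.35) and *Mir296* of -0.46 (SE 0.33). *Mir15a*, in an intron of the noncoding gene *Dleu2*, measured 0.944, 1.20 and 0.957 CPM in WT libraries and 0.970, 1.62 and 2.35 CPM in 5C libraries (log2 fold change 0.65, SE 0.36).

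A hairpin can be set beside the gene that contains it. Hairpins in an intron numbered 61, and the rest of those compared here touched an exon on the same strand. On the same strand, 73 of the 114 lay inside 61 different genes, all of which were tested, and 4 of these (6.56%) had an unadjusted p under 0.05 where 6.02% of all genes did, with 0 after adjustment. In WT, the level per base of the 72 hairpins other than *Mir483* had a median of 27.5% of the level per base of their host's exons, with 13 hairpins under 10% and 11 above the host. *Mir6546* stood highest, at 643% of *Fcgr3*. For 12 tested hairpins other than *Mir483*, log2 fold changes of hairpins ranged from -1.24 to 0.65 and those of their hosts from -0.84 to 0.17.

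*Igf2* is the host of *Mir483*, and its exons also belong to the overlapping gene *Gm49394*. Reads under exons of several genes are not counted, so its count is uncertain. How many reads were lost was not measured. It measured 16.9, 8.41 and 17.1 CPM in WT libraries and 10.48, 10.1 and 9.75 CPM in 5C libraries, a log2 fold change of -0.48 (SE 0.24, adjusted p = 0.781 in edgeR's test). That estimate has the opposite sign to that of *Mir483*. The antisense gene *Igf2os* had a log2 fold change of -0.57 (SE 0.11, adjusted p = 0.781).

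**Figure D5:**
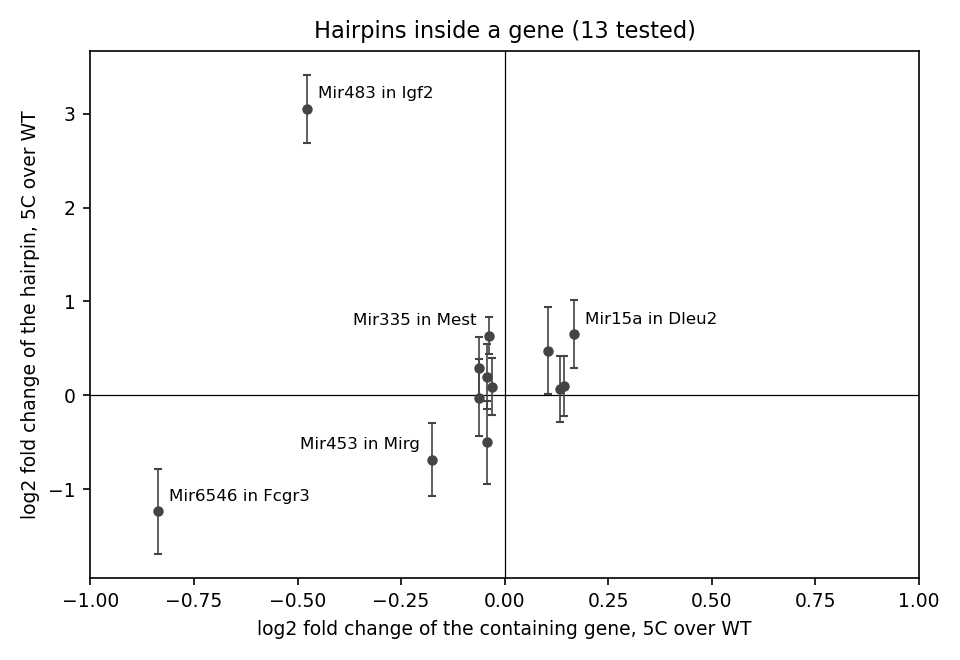
Log2 fold change, 5C over WT, of 13 tested hairpins against that of the gene that contains each, with bars of 1 standard error of the hairpin. *Mir483* lies at 3.05 above an *Igf2* value of -0.48, and *Mir335* at 0.64 beside a *Mest* value of -0.04. *Mir6546* lies at -1.24 beside a *Fcgr3* value of -0.84. That *Fcgr3* value has an SE of 0.58, and WT replicate 1 lies above all other libraries of the gene.

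The genes that make and use microRNAs, a list of 21, were all tested, 14 with lower and 7 with higher estimates in 5C, a median log2 fold change of -0.04, and 0 with an adjusted p under 0.05. At an unadjusted p under 0.05, 2 of the 21 were lower and 0 higher in edgeR's test, where 3.47% of all genes were lower and 2.55% higher. *Tarbp2*, a partner of Dicer, measured 18.99 ± 2.92 CPM in WT embryos and 15.0 ± 0.11 CPM in 5C embryos (log2 fold change -0.34, SE 0.13). *Ago2*, the Argonaute that cuts its target, measured 144.5 ± 24.3 CPM in WT embryos and 119.3 ± 3.33 CPM in 5C embryos (-0.28, SE 0.11). *Tnrc6a*, a scaffold of the silencing complex, had a log2 fold change of -0.13 (SE 0.06), and *Drosha* and *Dicer1* of -0.11 (SE 0.10) and -0.04 (SE 0.06).

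The hairpins were short and mostly thinly read. Their median length was 86 bases, from 56 to 139, and 89 of the 114 had a mean count under 10, with a median of 6. In 17 at least 1 library held no read. GC content, known for 100 of the other 113, ranged from 29.1% to 69.1%, and its median was 51.9% in those with lower and 48.8% in those with higher mean CPM in 5C. Across these 100 hairpins, which share the same libraries, Spearman's rho between GC content and the ratio was 0.00.

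At the threshold itself, 6 hairpins had a mean count of exactly 3 (*Mir341*, *Mir412*, *Mir704*, *Mir1190*, *Mir6897* and *Mir7053*), and 15 lay from 3 to under 3.5. Just below it, 22 lay from 2.5 to under 3, of which 14 had 2.83, among them *Mir9-3*, *Mir145a*, *Mir298*, *Mir374b* and *Mir431*. Counts of these 22 ranged over a few reads per library, as in *Mir431* with 8, 1 and 1 in WT and 3, 2 and 2 in 5C.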

How the data were processed

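Poly(A)-selected, stranded libraries of whole E10.5 embryos were read as 40-base single ends. The authors mapped the reads to GRCm38 by STAR 2.5.0a, and the deposited values are unnormalised counts for each Ensembl gene. Which strand column was used is not given in the sources used here. Symbols (55141 of 55401 identifiers) and positions came from GENCODE M21, and sequences from RefSeq. Genotypes were compared in R 4.3.3 by edgeR 4.0.16 (filterByExpr on genotype, TMM scaling, legacy quasi-likelihood F-test, two-sided, Benjamini-Hochberg over all genes tested). Genotype came from the sample titles, and p-values measure the spread between these pools. The script was tested on simulated data. Alternatives were other scalings and filters, DESeq2 1.42.0, limma-voom (limma 3.58.1), robust moderation, a block on replicate number and each library left out. Floors cover counting error only. Hairpins named were *Mir483*, the 12 highest, those with p under 0.05 or without overlap, cluster members and those near the threshold, with 3 pathway genes. The members and lists were chosen with earlier results of these data known. The seed families, position groups and other genes were chosen after their values were seen. Whether equal replicate numbers mark paired libraries could not be decided.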

Additional observations from a re-analysis of the deposited data

How the results depend on the processing

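*Mir483* kept its direction under every alternative that gave a value. Its log2 fold change was 3.065 without a count filter (adjusted p = 5.163e-16), 3.088 with DESeq2 (1.627e-05) and 3.052 with robust moderation of edgeR (0.008435). It ranged from 2.827 to 3.341 when single libraries were left out, and was called only without 5C replicate 3. The fit without a count filter took little account of the spread between libraries. Its SE for *Mir6236* was 0.083, against 0.624 in the main fit. The filter of at least 10 counts in every library removed *Mir483* and gave no value. Hairpins with an adjusted p under 0.05 numbered 1 without a count filter, with DESeq2 and with robust moderation, and 0 to 1 without single libraries. Hairpins with an unadjusted p under 0.05 numbered 3 with the 10-count filter, 3 with DESeq2, 4 without replicate 2 of both genotypes and 3 to 9 without single libraries. The median log2 fold change of the other tested hairpins was -0.395 to -0.166 without single libraries. It was 0.001 over the 6 with at least 10 counts in every library. Hairpins without overlap numbered 41 without replicate 2 of both genotypes and 23 to 35 without single libraries, where fewer samples have to be apart. Genes with an adjusted p under 0.05 numbered 416 without a count filter, 19 with DESeq2, 3 with robust moderation and 0 to 1 without single libraries.

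Correlations between libraries gave no sign that equal replicate numbers mark pairs, but 3 libraries per genotype are too few to decide it. Deviations from the group mean correlated at -0.174, 0.202 and -0.166 between libraries of the same number, and 1 of the 3 WT libraries correlated best with the 5C library of its own number. With the replicate block, *Mir483* had a log2 fold change of 3.169 with adjusted p = 0.0959, and 5 hairpins had an unadjusted p under 0.05.

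Of 213 values of 15 single hairpins under an alternative, 198 kept their direction and 15 changed sign, all of hairpins near 0. None of these hairpins had an adjusted p under 0.05 in any fit, so keeping that side carries little weight. At the unadjusted threshold *Mir6546*, *Mir8091*, *Mir7688*, *Mir679* and *Mir1983* lost their place in some fits, as given above. Without single libraries, *Mir6236* ranged from -0.799 to 0.938, *Mir301* from -0.239 to 0.369, *Mir7-1* from -0.233 to 0.291 and *Mir654* from -0.366 to 0.366. Without replicate 2 of both genotypes, *Mir6236* was 1.052, *Mir7-1* -0.262 and *Mir654* 0.400. *Mir654* was 0.048 with limma-voom and 0.033 with the replicate block. The cause of these changes was not tested. Depth limits the 83 hairpins that were not tested.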

Other observations

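*Mir6236* had the same high libraries as 2 genes elsewhere, chosen after their values were seen. *Lars2*, which encodes the mitochondrial leucyl-tRNA synthetase, measured 43.0, 202.6 and 39.6 CPM in WT libraries and 66.7, 138.6 and 160.5 CPM in 5C libraries. *Gm15564*, an unnamed gene model, measured 7.82, 47.6 and 6.38 CPM in WT libraries and 12.7, 24.2 and 31.3 CPM in 5C libraries. In each of these 3 genes WT replicate 2 was highest in WT and 5C replicate 3 highest in 5C. What the 2 genes share with *Mir6236* was not tested.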
